A study of Bos taurus with 8 samples.

Results

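The CDYL and CBX genes encode chromodomain proteins, and 9 of them (CDYL, CDYL2, CBX1, CBX2, CBX3, CBX5, CBX6, CBX7 and CBX8) were followed in bovine 2-cell embryos. All probes whose platform annotation symbol was one of these 9 names were taken, which gave 14 of the 43794 probes on the array, for 9 of the 15212 genes with a symbol there. The family was chosen by the log ratios between the groups on these same arrays, because 1 CDYL probe was among the probes called different between the groups while the other CDYL probes were not. The log ratios of the members between the groups are therefore given as a description and not as a test. Both groups were 2-cell embryos made by in vitro maturation and fertilization of oocytes from slaughterhouse Holstein ovaries, with a mixture of semen from several bulls, and both were cultured in the same way. The group called fast in the labels was collected at 29.5 hours post-fertilization (hpf) and the group called slow at 46 hpf, so that age at collection and speed of cleavage changed together and cannot be told apart. Amplified RNA of the groups was hybridised together on 8 two-colour arrays, 4 with the 29.5 hpf RNA in the dye Cy5 and 4 with the 46 hpf RNA in Cy5. The labels number them as 4 biological replicates, each measured with both dye orientations.

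A chromodomain is a small fold that binds methylated lysine on histone tails. CBX1, CBX3 and CBX5 are the heterochromatin proteins HP1 beta, HP1 gamma and HP1 alpha, which bind histone H3 methylated at lysine 9 and gather silent chromatin. CBX2, CBX6, CBX7 and CBX8 are alternative subunits of the Polycomb repressive complex PRC1, which binds histone H3 methylated at lysine 27. CDYL and its paralog CDYL2 join a chromodomain to a domain that resembles an enoyl-CoA hydratase. In human and mouse cells CDYL acts as a corepressor together with the H3K9 methyltransferase G9a, the product of EHMT2. After fertilization these proteins take part in setting up the chromatin of the new embryo, from messenger RNA that is at first maternal.

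A log2 ratio here is the loess-normalized log2 of 29.5 hpf over 46 hpf signal, so a positive value means more signal at 29.5 hpf. A replicate value is the mean of the arrays that share a replicate number. Level means the log2 normalized intensity of 1 group in its own channel, and levels are compared only within a probe. Testing was limited to probes brighter than the negative controls on at least 4 of the 8 arrays in 1 group, and a probe was called at a limma adjusted p under 0.05. Of the 14 probes 12 were tested, and the untested ones were 1 probe of CBX3 and 1 of CBX7. One of the 12 was called, higher at 29.5 hpf, and over the whole array 1.23% of 31503 tested probes were called, 0.673% higher and 0.559% lower. With the exchanged numbering described next, the same 1 member was called and 0.0127% of all tested probes. The median log2 ratio was -0.04 over the 12 tested member probes and -0.01 over all tested probes. The median SD between replicates was 0.19 for the members and 0.19 for all tested probes.

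The depth of these arrays is a matter of signal, and the number of arrays limits the precision. Raw array medians ranged from 152.1 to 343.8 for Cy5 and from 128.5 to 195.7 for Cy3. Replicate numbers 1 and 2 did not join arrays that resembled each other: across tested probes the dye-swapped log ratios correlated at 0.04 for number 1 and 0.05 for number 2, against 0.62 for number 3 and 0.72 for number 4. When numbers 1 and 2 were exchanged in 1 dye orientation, these correlations became 0.67 and 0.52. The exchange left each mean as it was and changed the SDs, so an SD from the exchanged numbering is given where a result turns on it. If the exchanged numbering is the right one, labelled values 1 and 2 each average the same pair of samples. They are then not independent, and the labelled SDs and p-values can be too small. Which numbering is right was not tested. Of 16 oocyte and early embryo markers 15 had probes, and all 15 were above the negative controls. In the cumulus and granulosa cell list 13 of 17 genes were above them, and AMH, FOXL2, TNFAIP6 and HSD3B1 were not. SERPINE2 of that list was called, with a log2 ratio of -1.28 ± 0.10 (SD, n = 4; limma adjusted p = 0.0217). With the exchanged numbering its SD was 0.16 and it was not called (limma adjusted p = 0.0609). The 15 tested probes of this list had a median log2 ratio of -0.02, and SERPINE2 was the only call. A probe of STAR went the other way at 0.67, with its other probes at 0.16 and -0.02, and none was called. The part of such cells in the values below was not tested. In the sperm list 4 of 10 genes were above the negative controls, and PRM1, TNP1 and TNP2 were not. The summed intensity of the 24 embryo probes ranged over replicates from 155213 to 172414 at 29.5 hpf and from 167374 to 178017 at 46 hpf. That of the 21 cumulus and granulosa probes ranged from 44313 to 52789 at 29.5 hpf and from 45541 to 47544 at 46 hpf. That of the 12 sperm probes ranged from 2178 to 2277 at 29.5 hpf and from 2221 to 2408 at 46 hpf. The brightest probes weigh most in such sums, and most sperm probes lay near background. The sums therefore do not measure the share of a cell type. In such pools of whole embryos, fewer contributing cells and less RNA per cell cannot be told apart.

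The 3 probes of CDYL gave different results. Probe EMBV3_35542 had more signal at 29.5 hpf, with replicate log2 ratios of 1.29, 1.69, 1.84 and 1.67 for replicates 1 to 4. All of them lay far above 0. The mean was 1.62 ± 0.23 (SD, n = 4), a 3.08-fold higher signal at 29.5 hpf. Its level was 13.34 ± 0.08 (SD, n = 4) at 29.5 hpf and 11.72 ± 0.22 (SD, n = 4) at 46 hpf, and the replicates of the groups did not overlap. Such a separation of levels occurred in 9.65% of all tested probes. The raw signals of this spot separated the groups as well, from 7957 to 13408 with a median of 9881 over the 8 arrays at 29.5 hpf and from 2568 to 5053 with a median of 3247 at 46 hpf.

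Probe EMBV3_08196, annotated to the same gene, had replicate log2 ratios of 0.02, 0.00, -0.38 and 0.17. They fell on both sides of 0, with a mean of -0.05 ± 0.24 (SD, n = 4). Its raw signal had a median of 1588 at 29.5 hpf and 1584 at 46 hpf. Probe EMBV3_32143 had replicate log2 ratios of 0.35, -0.12, 0.56 and -0.09, again on both sides of 0, with a mean of 0.17 ± 0.33 (SD, n = 4). This was a bright spot in both groups, with a level of 14.22 ± 0.20 (SD, n = 4) at 29.5 hpf and 14.05 ± 0.16 (SD, n = 4) at 46 hpf. All 3 CDYL probes were above the negative controls on all 8 arrays in both groups.

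**Figure D1:**
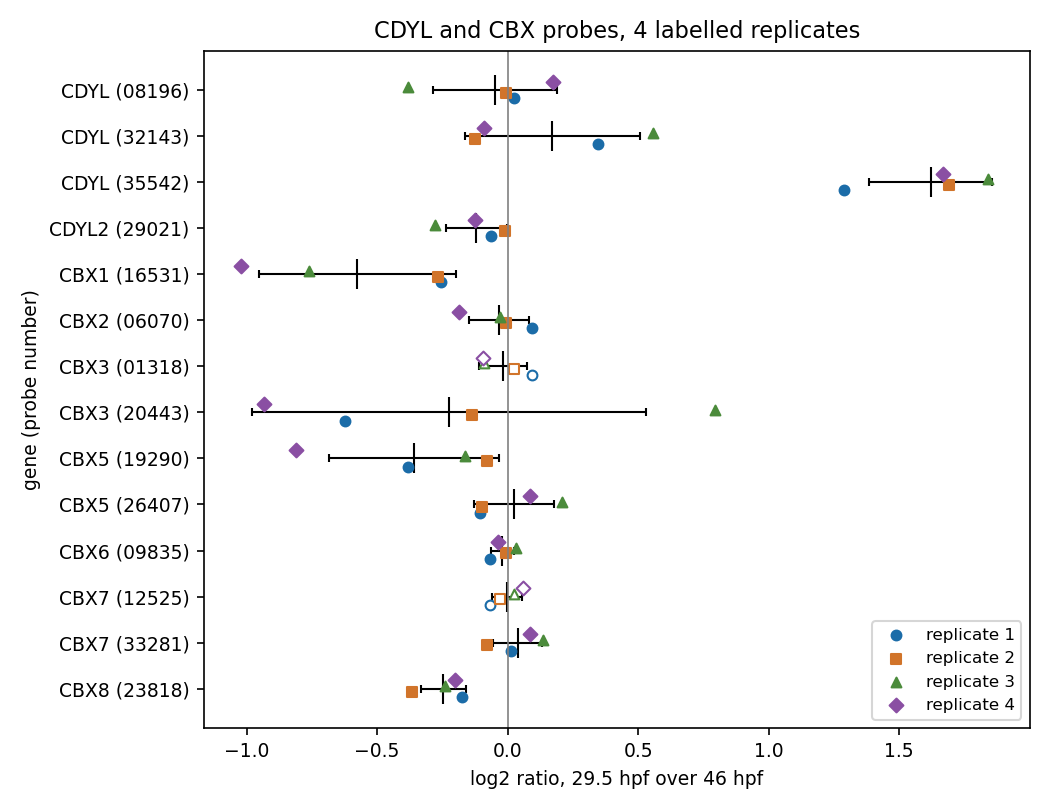
Log2 ratio of 29.5 hpf over 46 hpf (x axis) for the 14 probes of the family (y axis, gene and probe number), with a symbol for each labelled replicate and a black line for the mean ± SD; open symbols mark the 2 untested probes. Probe EMBV3_35542 of CDYL has its 4 replicates between 1.29 and 1.84, and the replicates of the other probes lie between -1.02 and 0.80.

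Probe EMBV3_35542 exceeded EMBV3_08196 by 1.67 ± 0.41 and EMBV3_32143 by 1.45 ± 0.41 (log2 ratio, SD, n = 4), with the same direction in 4 of 4 replicates in both comparisons. Because the gene was chosen for this contrast between its probes, no test is given. As background, 2940 genes had more than 1 tested probe, and the median distance between the highest and the lowest probe of a gene was 0.21 in log2 ratio. The distance of CDYL, by which it was chosen, was 1.67. Which transcripts of CDYL the probes match was not analysed here, since neither their sequences nor their positions were at hand.

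The values of CDYL probe EMBV3_35542 in each dye orientation are a description, since the probe was chosen by its call over these same arrays. With 29.5 hpf in Cy5 the 4 arrays of probe EMBV3_35542 had log2 ratios of 1.41, 1.71, 1.58 and 1.75, and with 46 hpf in Cy5 they had 1.16, 1.67, 2.09 and 1.59. The orientation means were 1.61 ± 0.15 (SD, n = 4 arrays) and 1.63 ± 0.38 (SD, n = 4 arrays). All 8 arrays lay above 0, as 1 sign on all 8 arrays did in 7.3% of tested probes. Arrays whose titles open with 140, 141 and 142 had means of 1.43, 1.67 and 1.78. Replicate 1 was the lowest in the labelled numbering, and with numbers 1 and 2 exchanged the corresponding pairs were at 1.54 and 1.43, with an SD of 0.17 over the 4 pairs.

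**Figure D2:**
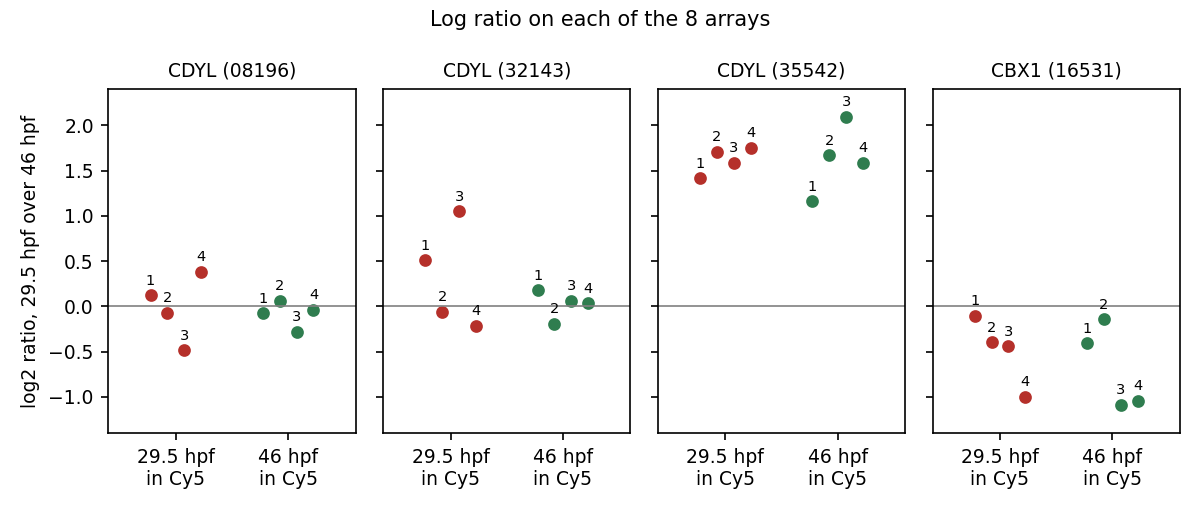
Log2 ratio of 29.5 hpf over 46 hpf (y axis) on each of the 8 arrays for the 3 CDYL probes and the CBX1 probe, split by dye orientation (x axis), with the labelled replicate number over each point. CDYL probe EMBV3_35542 lies between 1.16 and 2.09 and CBX1 between -1.08 and -0.10, while the other CDYL probes have arrays on both sides of 0.

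CDYL2, the paralog of CDYL, had 1 probe, with replicate log2 ratios of -0.06, -0.01, -0.28 and -0.13. All were slightly below 0, with a mean of -0.12 ± 0.12 (SD, n = 4), and the probe was not called. Its 8 arrays spread much more widely, from -0.70 to 0.58, and with numbers 1 and 2 exchanged the SD was 0.40. The raw signal of CDYL2 had a median of 512.2 at 29.5 hpf and 510.5 at 46 hpf.

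Of the 5 probes of the HP1 genes, 4 had a mean below 0 and 1 a mean above 0, and none was called. By method CBX1 was called lower at 29.5 hpf only in the 2 fits on 8 arrays, with a replicate block or a dye term. These fits count dye swaps as separate arrays. They called 1638 and 1917 of 31503 tested probes, against 388 in the fit over 4 replicates. The limma adjusted p of CBX1 was 0.137 over the 4 replicates and 0.240 with exchanged numbering, where its SD was 0.39. CBX1, which encodes HP1 beta, had replicate log2 ratios of -0.26, -0.27, -0.76 and -1.02. All 4 were below 0, with a mean of -0.58 ± 0.38 (SD, n = 4), a 1.49-fold higher signal at 46 hpf. Its level was 9.15 ± 0.20 (SD, n = 4) at 29.5 hpf and 9.73 ± 0.22 (SD, n = 4) at 46 hpf, without overlap between the replicates of the groups. Such a separation occurred in 9.65% of all tested probes. The raw signal of CBX1 ran from 434.4 to 645.5 at 29.5 hpf and from 665.1 to 1046 at 46 hpf over the 8 arrays. All 8 arrays had a log2 ratio below 0, with a mean of -0.48 ± 0.37 (SD, n = 4 arrays) where 29.5 hpf was in Cy5 and -0.67 ± 0.47 (SD, n = 4 arrays) where 46 hpf was. Arrays with titles opening with 140, 141 and 142 had means of -0.30, -0.72 and -0.76, so the size of the difference was not uniform over the arrays. CBX1 and probe EMBV3_35542 of CDYL were the 2 member probes with 1 sign on all 8 arrays, in opposite directions. Over the array 7.3% of tested probes had 1 sign in this way.

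CBX5, which encodes HP1 alpha, had a pair of probes. Probe EMBV3_19290 had replicate log2 ratios of -0.38, -0.08, -0.16 and -0.81, all below 0, with a mean of -0.36 ± 0.33 (SD, n = 4). Probe EMBV3_26407 had -0.10, -0.10, 0.21 and 0.09, on both sides of 0, with a mean of 0.02 ± 0.15 (SD, n = 4). The first was below the second in 3 of 4 replicates, by 0.38 ± 0.38 (SD, n = 4), a difference no larger than its own spread. Neither was called, and both were above the negative controls on 7 of 8 arrays in each group.

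CBX3, which encodes HP1 gamma, varied most between replicates. Its probe EMBV3_20443 had replicate log2 ratios of -0.62, -0.13, 0.80 and -0.93. Replicate 3 was above 0 and the others below it. Both dye orientations gave this for replicates 3 and 4, with the arrays numbered 3 at 0.48 and 1.11 and those numbered 4 at -0.85 and -1.02. The mean was -0.22 ± 0.75 (SD, n = 4), far inside this spread. The spread lay mainly in the 46 hpf embryos, whose level ran from 10.30 to 12.04 over the replicates (SD 0.72, n = 4), against 10.77 to 11.11 (SD 0.16, n = 4) at 29.5 hpf. The other CBX3 probe, EMBV3_01318, was above the negative controls on 1 of 8 arrays in each group and was not tested. Its log2 ratio was -0.02 ± 0.09 (SD, n = 4), which says little because the spot lay near background. With a limit of the median plus 2 MAD of the negative controls, chosen after seeing the data, it was above on 4 and 5 of 8 arrays and was tested, and it was not called.

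**Figure D3:**
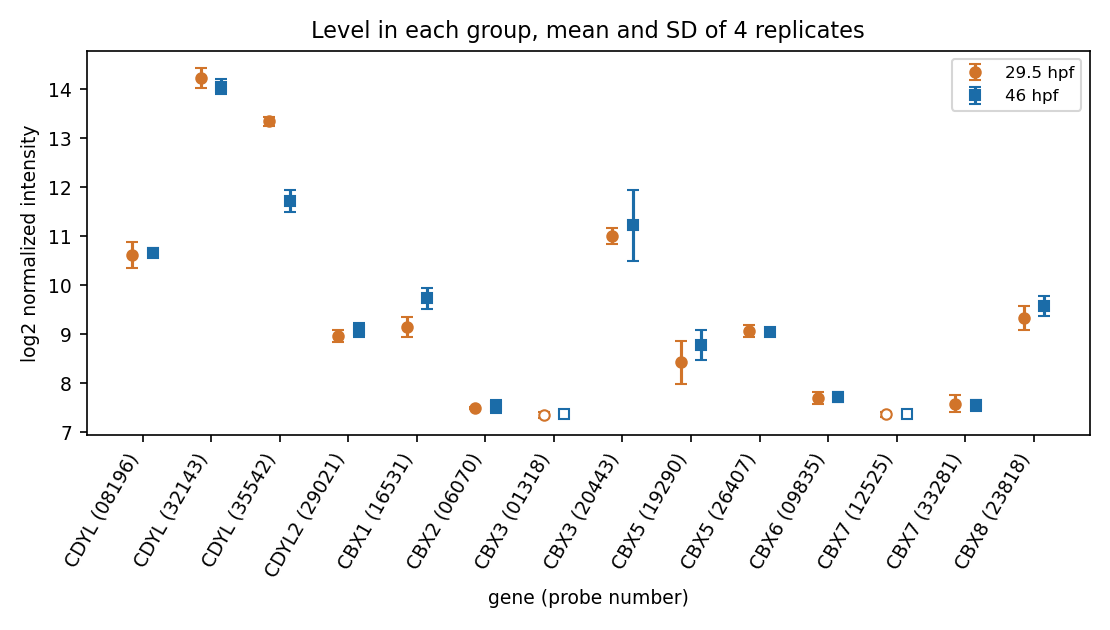
Level of each probe in each group (y axis, log2 normalized intensity; points are means and bars SDs of 4 replicates) for the 14 probes (x axis), with open symbols for the untested probes; levels are to be read within a probe, since probes differ in how strongly they bind. CDYL probe EMBV3_35542 stands at 13.34 at 29.5 hpf and 11.72 at 46 hpf, and the wide bar of CBX3 at 46 hpf is an SD of 0.72.

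The Polycomb members showed small log ratios. CBX8, a PRC1 subunit, had replicate log2 ratios of -0.18, -0.37, -0.24 and -0.20, all below 0, with a mean of -0.25 ± 0.09 (SD, n = 4), and was not called. The spread was wider between single arrays than between replicates, and the mean was -0.44 ± 0.29 (SD, n = 4 arrays) with 29.5 hpf in Cy5 and -0.06 ± 0.19 (SD, n = 4 arrays) with 46 hpf in Cy5. Its level was 9.33 ± 0.24 (SD, n = 4) at 29.5 hpf and 9.58 ± 0.20 (SD, n = 4) at 46 hpf, with overlap.

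CBX2, CBX6 and CBX7, the other PRC1 subunits measured, lay near the bottom of the signal range. CBX2 had a log2 ratio of -0.03 ± 0.12 (SD, n = 4) and was above the negative controls on 3 of 8 arrays at 29.5 hpf and 6 of 8 at 46 hpf. CBX6 had -0.02 ± 0.04 (SD, n = 4), above the controls on 5 and 7 of 8 arrays. CBX7 had 0.04 ± 0.09 (SD, n = 4) on its tested probe EMBV3_33281, above the controls on 4 of 8 arrays in each group. Its untested probe EMBV3_12525 had 0.00 ± 0.06 (SD, n = 4), above the controls on 2 and 3 of 8 arrays. A difference in these 3 genes was not detectable at this signal and is not shown to be absent. On 2 arrays 1 bright negative control spot, at 3935 and 3353 in Cy5, raised the limit to 807.2 and 722.7, against 114.7 to 332.6 on the other arrays. With the median and MAD limit CBX2 was above the controls on 6 of 8 arrays in both groups, CBX6 on 7 and 8, and the CBX7 probes on 6 and 5 (EMBV3_33281) and on 2 and 4 (EMBV3_12525).

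Over the family, 10 of the 14 probes had a mean below 0 and 4 a mean above 0. Some of these means lay near 0, among them those of the untested probes of CBX3 at -0.02 and CBX7 at -0.003. The share of all tested probes below 0 was not counted, so the split is not read as a trend. There were 5 probes with 1 sign in all 4 replicates, those of CDYL2, CBX1 and CBX8, probe EMBV3_19290 of CBX5, all below 0, and probe EMBV3_35542 of CDYL, above 0. All 5 were tested, and 26% of all tested probes had 1 sign in this way. With exchanged numbers the count was 3, since CDYL2 and the CBX5 probe then had pairs on both sides of 0, and the share of all tested probes was 20.4%. At an unadjusted p under 0.05 there were 4 of the 12 tested member probes and 16.9% of all tested probes, and with exchanged numbers 3 of the 12 and 12.8%.

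The genes most like CDYL probe EMBV3_35542 were sought by the root mean square difference of their log2 ratios from those of this probe over the 8 arrays. The nearest was HNRNPH1, a splicing regulator, at a difference of 0.24, with a mean log2 ratio of 1.51 ± 0.03 (SD, n = 4). PCNA, the sliding clamp of DNA replication, followed at a difference of 0.37, with a mean of 1.35 ± 0.32 (SD, n = 4). SMAD1, HERC2 and GPN2 were next, at 0.39, 0.39 and 0.40. These distances describe 8 arrays that share samples, and they mostly pick probes with a similarly large positive log2 ratio. No CBX probe and not CDYL2 came close: CBX1, at a mean of opposite sign, had a difference of 2.27 and CDYL2 one of 1.83.

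The genes that work beside the family were counted in 7 overlapping lists, chosen with earlier results of these arrays known. They held 87 genes, of which 78 had tested probes, and 1 of 113 tested probes was higher at 29.5 hpf and 4 were lower (limma, adjusted p under 0.05), a share of 4.42% against 1.23% over the array. Their median log2 ratio was -0.04, against -0.01 for all tested probes. At an unadjusted p under 0.05 there were 32 of the 113, against 16.9% of all tested probes (limma). With numbers 1 and 2 exchanged none of the 5 passed, while 0.0127% of all tested probes did, and 25 of the 113 were at an unadjusted p under 0.05, against 12.8% of all tested probes (limma).

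Of the other PRC1 genes 0 of 26 tested probes rose and 1 fell (median -0.08). It was that of PCGF6, a subunit of variant PRC1, at -0.60 ± 0.04 (SD, n = 4; limma adjusted p = 0.0329), with an SD of 0.23 in the exchanged numbering (limma adjusted p = 0.131). PCGF3 at -0.64, the catalytic subunit RNF2 at -0.65 and PCGF2 at 0.24, with its other probes at -0.03 and -0.005, did not pass. Of the PRC2 genes, which write the mark that the Polycomb CBX proteins bind, 1 of 19 tested probes rose and 0 fell (median -0.02). It was a probe of JARID2, an accessory subunit, at 0.43 ± 0.05 (SD, n = 4; limma adjusted p = 0.0483), with an SD of 0.08 in the exchanged numbering (limma adjusted p = 0.121). The other JARID2 probes, at -0.46, 0.46 and 0.02, were not called. RBBP7 at 0.50, EZH2, the methyltransferase, at -0.56 with another probe at 0.08, and RBBP4 at 0.19 did not pass.

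Of the genes for H3K9 methylation and the HUSH complex, 0 of 12 tested probes rose and 1 fell (median -0.05). It was that of MPHOSPH8, itself a chromodomain reader of methylated H3K9, at -0.69 ± 0.13 (SD, n = 4; limma adjusted p = 0.0352). The exchanged numbering gave it an SD of 0.52 (limma adjusted p = 0.262). SUV39H1 at 0.32, SETDB1 at 0.49 and ATF7IP at 0.20 did not pass. Of the HP1 partners 0 of 20 tested probes rose and 2 fell (median -0.01), both of CHAMP1, a kinetochore protein that binds POGZ, at -0.93 ± 0.17 and -0.93 ± 0.28 (SD, n = 4; limma adjusted p = 0.0329 and 0.0399). Their SDs in the exchanged numbering were 0.30 and 0.32 (limma adjusted p = 0.0997 and 0.103). ATRX at 0.37, POGZ at 0.48 and ADNP at 0.42, each on its probe with the smallest p, did not pass, and all 3 genes had other probes closer to 0.

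Of the CDYL partners 0 of 14 tested probes were called in either direction (median -0.11, limma). At an unadjusted p under 0.05 (limma) there were 5 of them, against 16.9% of all tested probes. KDM1A, the H3K4 demethylase LSD1, was at 0.39 with its other tested probe at -0.23, MIER1 at 0.42 with other probes at -0.45 and -0.42, and RCOR3 at -0.33. Of the H3K9 demethylases 0 of 9 tested probes were called in either direction (median 0.18, limma). Here too 5 were at an unadjusted p under 0.05 (limma), against 16.9% of all tested probes. KDM3A was at 1.61 ± 0.71 (SD, n = 4; limma adjusted p = 0.0611) and KDM4C at 0.64 ± 0.26 (SD, n = 4; limma adjusted p = 0.0676). KDM4A, named after its value was seen, was on the other side of 0 at -0.40 ± 0.14 (SD, n = 4; limma adjusted p = 0.0836). Of the other chromodomain genes 0 of 22 tested probes rose and 1 fell, MPHOSPH8 again (median -0.10), and ARID4A at -0.71, CHD8 at 0.50 and MORF4L1 at -0.44 did not pass. KDM3A was thus close in mean to CDYL probe EMBV3_35542 and had an SD of 0.71, against 0.23 for that probe.

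**Figure D4:**
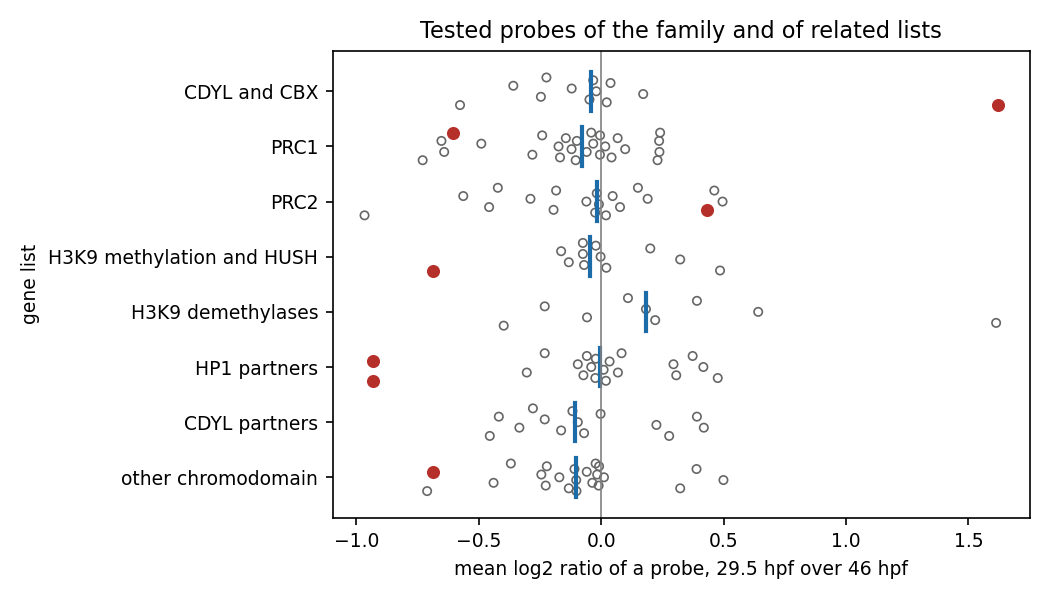
Mean log2 ratio of 29.5 hpf over 46 hpf (x axis) of each tested probe of the family and of the 7 related lists (y axis), with called probes filled and a blue bar at each list's median. The called CDYL probe at 1.62 is the highest point, KDM3A at 1.61 is next and not called, and the called probes of PCGF6, MPHOSPH8 and CHAMP1 lie between -0.93 and -0.60.

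CDYL probe EMBV3_35542 and CBX1 kept their direction in all 18 other settings of the processing that were tried. Most of these settings could not turn it, since they leave the mean as it is or drop a replicate or pair of the same sign. Only no background correction, median centring and the authors' values could turn it. There the CDYL probe was at 1.63, 1.32 and 1.63, and CBX1 at -0.61, -0.85 and -0.75. CDYL probe EMBV3_35542 ran from 1.32 with median centring in place of loess to 1.73 without replicate 1, and CBX1 from -0.85 with median centring to -0.43 without replicate 4. Median centring moved the median of all tested probes from -0.01 to -0.08 and turned the sign of 5 member probes, which were EMBV3_32143 of CDYL, EMBV3_26407 of CBX5, EMBV3_01318 of CBX3, EMBV3_12525 of CBX7 and that of CBX2. The call of CDYL probe EMBV3_35542 was lost whenever 1 replicate was left out, as was every other call, since 0 of 31503 tested probes were then called.

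**Figure D5:**
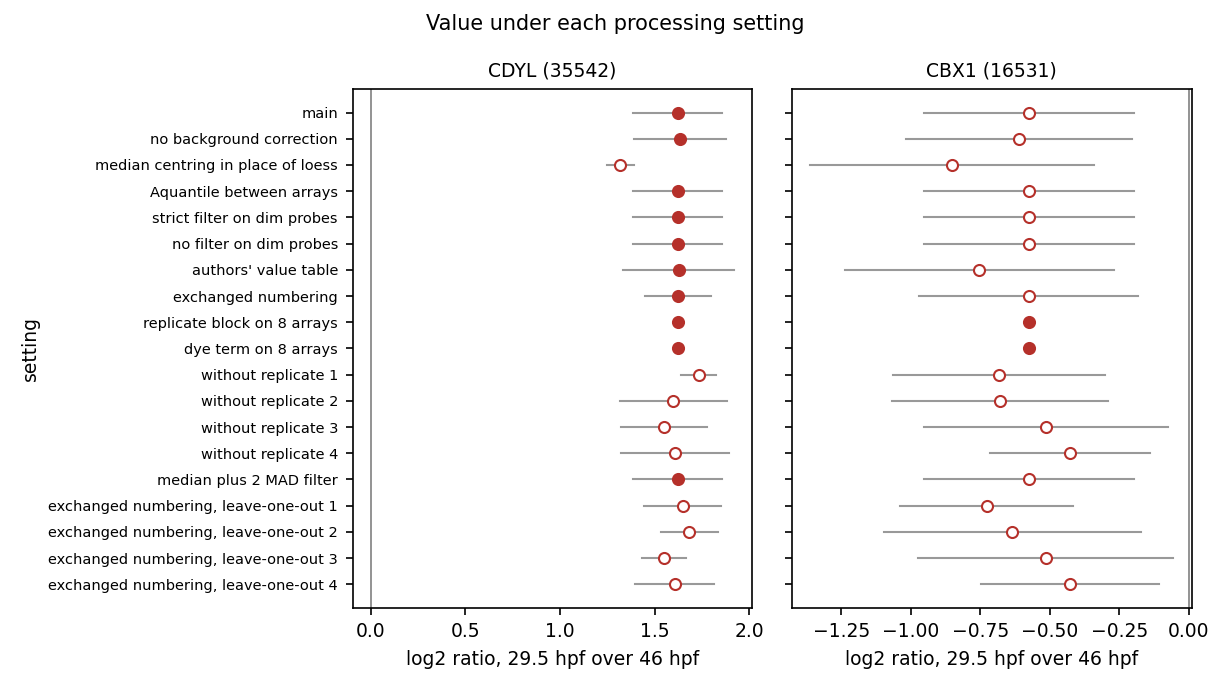
Log2 ratio of 29.5 hpf over 46 hpf (x axis) of CDYL probe EMBV3_35542 and of CBX1 under each processing setting (y axis), with filled points where the limma adjusted p was under 0.05 and grey lines for ± 1 SD between replicates where replicates were averaged. CDYL lies between 1.32 and 1.73 and CBX1 between -0.85 and -0.43, and CBX1 is filled in the 2 fits on 8 arrays.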

How the data were processed

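Two-colour arrays of 2-cell embryos gave, per the file headers, linear intensity values that were not normalized, the mean of each spot and the median around it for Cy3 and Cy5. The authors' deposited value table holds log2 ratios that already ran as 29.5 hpf over 46 hpf, with normalization not given in the sources used here, and was an alternative only. Per the labels' protocols, RNA was amplified by T7 transcription.

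Background was corrected by normexp (offset 50) and log ratios by loess within arrays (limma 3.58.1, R 4.3.3), with 1418 control spots and 28 to 186 omitted spots per array at weight 0. Dye-swapped arrays of 1 number were averaged, and 4 values were tested against 0 with lmFit and eBayes, two-sided, Benjamini-Hochberg adjusted over 31503 probes above the mean plus 2 SD of 153 negative controls on at least 4 arrays in 1 group. P-values measure the spread between the labelled replicates, of which numbers 1 and 2 may share samples. Levels used Aquantile.

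Deviations of same-numbered arrays from the mean correlated at -0.28, -0.19, 0.29 and 0.51 for numbers 1 to 4. Members and lists were chosen with earlier results of these data known. Genes named were all members, called list genes with up to 3 further by p, and the 5 nearest to CDYL probe EMBV3_35542. The fit was tested on simulated data with 4 independent replicates, which cannot show the effect of replicates that share samples.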

Additional observations from a re-analysis of the deposited data

Results flagged for a closer look

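Of 89 sets of 4 values examined for the members and the related genes named, 3 held a value far from the other 3, and chance gives about 1 in 20. None was a probe of the CDYL and CBX family. The gap to the nearest value was 0.880 of the range for a probe of KDM1A (replicate 4 at -0.86, the others from -0.06 to 0.05). It was 0.947 for ADNP on the probe given above (replicate 3 at 1.11, the others from 0.16 to 0.21). A probe of POGZ had 0.864, with replicate 3 at 0.19 and the rest between -0.11 and -0.07.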

How the results depend on the processing

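The family was chosen by the call of CDYL probe EMBV3_35542, so its calls under other settings describe the processing and support nothing. It was called with no background correction, Aquantile, strict filter, no filter, the authors' values, exchanged numbers, the block, the dye term and a limit of median plus 2 MAD of the negative controls (chosen after seeing the data). Aquantile leaves log ratios as they are by construction. It was not called with median centring, without any 1 replicate (3 values left) or, chosen later, without any exchanged pair. Calls among all probes, members and related lists were 388, 1 and 5. They were 655, 1 and 10 without background correction, 1206, 1 and 10 with the strict filter, 48, 1 and 0 with the authors' values (75.0% higher against 54.6%) and 4, 1 and 0 with exchanged numbers. The replicate block on 8 arrays gave 1638, 2 and 14, and the dye term 1917, 2 and 17; CBX1 was the added member, lower at 29.5 hpf. Both fits count dye swaps as separate arrays, and the consensus correlation in the block was 0.14. Median centring gave 0, 0 and 0 by limma, with 6432, 5 and 38 at an unadjusted p under 0.05. Leaving out 1 replicate gave from 0 to 0 in each, with 3969 to 5165, 3 to 5 and 21 to 33. The cause of these shifts was not tested. Of 248 member values under other settings, 235 moved by at most 1 SD and 13 by more. Many of the 248 could not move, so this count does not measure stability. Aquantile, the filters, the exchanged numbers and the fits on 8 arrays leave the mean of a member as it is.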

Other observations

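Some probes of the Polycomb lists were low in 1 replicate on both of its arrays, picked after their values were seen. A probe of AEBP2, a PRC2 accessory subunit, was at -2.77 in replicate 4, with arrays at -2.42 and -3.13, while the other replicates lay between -0.67 and -0.14. A probe of RYBP, a subunit of variant PRC1, was at -2.03 in replicate 4, with arrays at -2.13 and -1.93, and between -0.48 and 0.07 in the others. A probe of SUZ12, a core PRC2 subunit, was at -1.62 in replicate 4, with arrays at -1.46 and -1.78, and between -0.24 and 0.36 in the others. A further RYBP probe (EMBV3_03675) was also lowest in replicate 4, at -0.92 with arrays at -0.78 and -1.07, while its other replicates lay between -0.67 and 0.15. In replicate 4 the remaining RYBP probe was at 0.34, the other AEBP2 probes at 0.05 and -0.37, and the other SUZ12 probes at 0.21, 0.80 and -0.36. A JARID2 probe (EMBV3_17583), also picked after its value was seen, went the other way in replicate 4. It was at 1.23 there, with arrays at 1.51 and 0.95, and between 0.05 and 0.37 in the other replicates. The other JARID2 probes were at 0.49, -0.65 and 0.18 in replicate 4.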
